A study of Mus musculus with 374 samples.

Results

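Progenitor/stem cells of mouse bone marrow, sorted as cells without lineage markers that carry c-Kit and Sca-1 on their surface (Lin- Kit+ Sca1+, the LSK gate), filled 95 of the 374 wells with a label on 1 CEL-seq2 plate. They were chosen by their label alone, and their wells were those of plate rows K, L, M and N. The remaining wells held 44 B lymphocytes (B220+ and low in forward scatter), 96 erythroblasts (Ter119+ CD44+) and 96 granulocytes (Mac1+ Gr1+) from the same marrow, and 43 T cells (CD3+ and low in forward scatter) from the thymus. Every cell came from 1 female C57BL/6 mouse, aged between 10 and 13 weeks, with no treatment named. In CEL-seq2 the primer that captures the 3' ends of RNA carries a barcode of the well and a unique molecular identifier (UMI), so that copies of 1 captured molecule are counted once.

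The LSK gate holds the haematopoietic stem cells and the multipotent progenitors that arise from them, and it is a mixed population by design. Stem cells divide rarely and are kept by transcription factors such as those of the Hox, Meis, Gata and Runx families, while signals through receptor kinases such as Kit and Flt3 carry cells towards proliferation and commitment. Single progenitors can already express genes of a mature lineage at low level, which is called lineage priming.

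No difference below has a replicate and none was tested, because each population is a single sample of the 1 mouse. Counts were summed over the wells of a population and scaled to its UMIs on mouse genes, as UMIs per 1000000 (CPM). The 95% intervals are exact Poisson intervals for a sum, exact binomial intervals for a share of wells and exact conditional intervals for a ratio, and they cover counting error only. The spread between wells is given as the lowest, median and highest well.

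The progenitor/stem cell wells were the most deeply counted of the plate. They held 834812 UMIs on mouse genes against 1406438 in the other 4 populations, with a median of 7959 per well (range 2003 to 24033), and the medians of the other populations lay between 3028.5 and 6113.5. Erythroblasts gave 47.4% of the UMIs of the other 4 populations, and 23.5% of the erythroblast UMIs were on adult globin genes. A ratio to the summed rest is therefore weighted towards erythroblasts, and ratios without them are given beside those genes and lists they move most. A gene with fewer than 50 UMIs once the erythroblasts are left out has no such value.

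The label was checked against 6 markers, the surface genes Cd34, Kit, Adgrg1 and Flt3 and the transcription factors Hlf and Meis1. Their summed level was 3527 CPM (interval 3400 to 3656) under this label and 135 to 230 CPM under the others. In single wells they took 0.110% of the UMIs at the lowest, 0.356% at the median and 0.778% at the highest. By correlation with the population sums over 3906 genes, 94 of the 95 wells (98.9%, 94.3 to 100.0) lay nearest to their own population. The B lymphocyte markers held 216 UMIs (259 CPM, against 121 to 309 CPM in the populations other than B lymphocytes), of which 168 were on Ighm, 29 on Cd79b and 6 on Cd79a. The T cell markers held 40 UMIs (47.9 CPM, against 39.0 to 73.6 CPM in the populations other than T cells), of which 17 were on Cd4, 1 on Cd8a and 0 on Cd3g.

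Some wells stood apart. Wells K5, K6 and L11 did so by their erythroblast marker UMIs, at 12.1%, 4.01% and 16.9% of the well, where no other progenitor/stem cell well exceeded 3.33%. K5 also had 2.60% of its UMIs on granulocyte markers, K6 had 1.21%, and the highest of the other wells had 0.995%. The 3.33% and the 0.995% were both those of well M14, near those of K6, so the line between these wells is arbitrary. M14 correlated at 0.564 with its own population and 0.526 with the B lymphocytes. It was kept where K5, K6 and L11 were left out, and it held the highest Flt3 count (18). K5 was the shallowest well, with 2003 UMIs, and was the 1 well nearest to another population, the B lymphocytes. Globin RNA was present in every population, and Hbb-bs stood at 4601 CPM in the progenitor/stem cells, below the 5886 to 10323 CPM of the granulocytes, T cells and B lymphocytes. The share of UMIs on the mitochondrial genome also differed along the plate. Its medians were 0.638%, 0.627%, 1.16% and 1.43% in rows K, L, M and N, which were sorted in that order. Of the 24 wells above 2%, 21 were in rows M and N. Values that rest most on these wells are given with and without them, and the role of these shares in the results was not tested.

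A total of 6317 genes reached 50 UMIs in the progenitor/stem cells and the rest together, and of these 1735 (27.5%) were at least 2-fold higher in the progenitor/stem cells and 862 (13.6%) at least 2-fold lower. Of the genes past 2-fold in either direction, 66.8% were thus higher. With TMM factors, which balance the bulk of genes between the sums, the split turned to 656 higher and 1454 lower (31.1% higher), and with scran size factors per well to 706 and 1766 (28.6% higher). The median log2 ratio of all genes was 0.45 on CPM, -0.18 with TMM factors and -0.31 with scran factors. Gene lists are therefore described relative to the median of all genes. A factor that scales a whole sum does not move this distance. Counts of list members past 2-fold are to be read beside the shares of all genes past it. Those shares were 27.5% higher and 13.6% lower on CPM, 10.4% and 23.0% with TMM factors, and 26.8% and 11.8% without the erythroblasts.

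At least 2-fold above each of the other 4 populations were 296 genes (4.69%). Past 8-fold over the summed rest were 95 genes, and 37 were past 16-fold. Among the 862 lower genes, the population with the highest CPM was the erythroblasts for 481, the granulocytes for 245, the T cells for 71 and the B lymphocytes for 65. The largest block of lower genes was thus made up of genes of erythroblasts.

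The markers of the population are described first, then the genes that ranked highest. Cd34, a sialomucin of progenitors and endothelium (chromosome 1, 194938819 to 194961279, forward strand, in GENCODE M21), had 434 UMIs in the progenitor/stem cells and 16 in all other wells. Its count per well was 0 at the lowest, 4 at the median and 16 at the highest, and 90 of 95 wells had at least 1. The log2 ratio was 5.51 (4.80 to 6.33). After thinning every well to 2000 UMIs to remove the difference in depth, 77.9% of the progenitor/stem cell wells still had a Cd34 UMI, against 6.06% or fewer in any other population.

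Kit, the receptor of stem cell factor and an antigen of the gate (chromosome 5, 75574916 to 75656722, forward strand), had 0, 5 and 20 UMIs in the lowest, median and highest well. Its log2 ratio was 4.50 (4.05 to 4.99), and 69.5% of the thinned wells had a UMI against at most 9.09% elsewhere. Transcript and surface protein of Kit were loosely related across wells, with a Spearman rho of 0.37 and a Pearson r of 0.30 over 95 wells that share 1 plate and differ in depth. The c-Kit fluorescence ran from 2842 to 13046 arbitrary units, and no cell of the other populations passed 1511, which is the gate itself.

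Adgrg1, an adhesion G protein-coupled receptor also known as GPR56, was the one marker found in every progenitor/stem cell well, with 1, 9 and 24 UMIs at the lowest, median and highest. It stood at 1085 CPM against 44.6 to 95.7 CPM elsewhere, a log2 ratio of 4.17 (3.84 to 4.50). Thinned, 82.1% of wells had a UMI, and 21.4% of the T cell wells did, so a low level outside the gate cannot be told apart from free RNA by this count. Adgrl4, an adhesion receptor best known from endothelium, showed much the same picture with 0, 6 and 28 UMIs per well and a log2 ratio of 4.64 (4.18 to 5.12).

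Flt3, the receptor kinase that marks multipotent progenitors with lymphoid potential, differed from Kit in its distribution. Its counts were 0, 2 and 18 in the lowest, median and highest well, 20 of the 95 wells had none, and the 5 highest wells held 22.6% of its UMIs. The log2 ratio of the sums was 4.57 (4.00 to 5.21). Procr, the protein C receptor used to enrich stem cells, was rarer. It gave 28 UMIs in 22 wells and 1 UMI elsewhere, too few for the comparison of ratios, and was picked here after its values had been seen.

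Sca-1 is the second positive antigen of the gate, and its gene Ly6a was not distinctive in the counts. Ly6a had 0, 0 and 6 UMIs in the lowest, median and highest well, 41 wells had any, and its log2 ratio of 0.37 (-0.11 to 0.85) spans no difference. Without the erythroblasts, in which it stood at 4.50 CPM, the log2 ratio was -0.51. Sca-1 belongs to the Ly6 family of related genes, and whether reads were divided among them was not tested. The rho of Ly6a with Sca-1 fluorescence over 95 wells was 0.26 and the r 0.37.

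**Figure D1:**
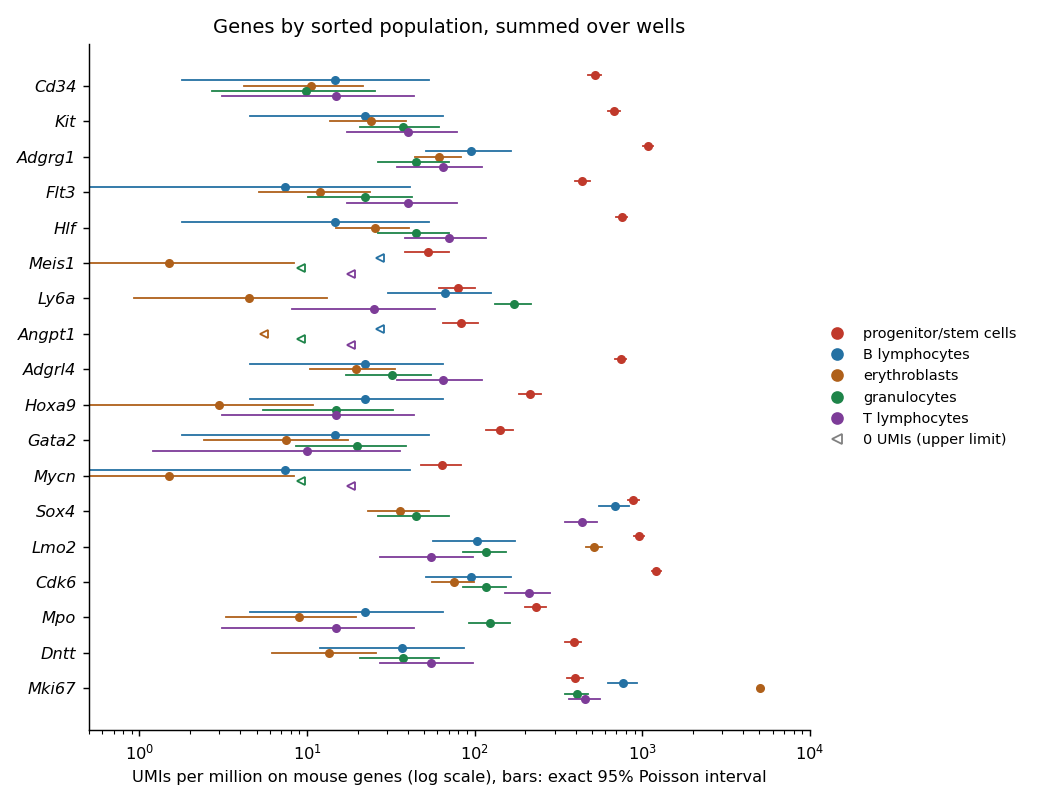
Summed UMIs as CPM on mouse genes (log axis) for 18 genes in the 5 sorted populations, with exact 95% Poisson intervals that cover counting error only; open triangles mark the upper limit of a population with 0 UMIs. Cd34, Kit, Adgrg1, Flt3, Hlf and Adgrl4 lie far to the right of the other populations in the progenitor/stem cells, whereas Ly6a is highest in granulocytes, Sox4 is near the B lymphocytes, and Mki67 is highest in erythroblasts.

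The 15 genes with the highest ratio to the rest, among those found in at least 25% of the wells, were a mixed set beside Cd34. Angpt1, the ligand of the Tie2 receptor kinase, had 69 UMIs in 40 progenitor/stem cell wells and 0 in all wells of the other populations. It was at least 38.7-fold higher, taking the floor of 3 UMIs over the rest. On the log2 scale this bound is 5.28, and 4.35 without the erythroblasts. Serpina3g, a protease inhibitor, had 122 UMIs against 4 with a log2 ratio of 5.68 (4.29 to 7.58), and it belongs to a cluster of near-identical genes. Dnmt3b, a de novo DNA methyltransferase, had 127 against 5 with a log2 ratio of 5.42 (4.16 to 7.07). Its wells ranged from 0 to 6 UMIs around a median of 1, and 65 of 95 had at least 1. Cd34, Angpt1, Dnmt3b, Slc18a2 and Flt3 each overlap another annotated gene, whose reads cannot be told apart from theirs without strand.

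Vldlr, a lipoprotein receptor, had 112 UMIs against 5, and Slc18a2, a vesicular monoamine transporter, 128 against 8. The MYC family member Mycn had 53 UMIs against 2, with 33 wells at 1 or more and none above 5. Ctla2b had 48 UMIs against 3, and its close relative Ctla2a 263 against 18, and reads of this pair can be divided between them. The set also held Myl10, Fam69b, Adgrl4 and the noncoding genes Gm19590, Gm16758 and Gm37818. Without the erythroblasts the log2 ratios of the genes named here lay between 3.83 for Ctla2b and 5.42 for Cd34, with 4.76 for Serpina3g and 4.49 for Dnmt3b. Gm37818 lies within Meis1, so its 53 UMIs cannot be told apart from unspliced Meis1 RNA.

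The 250 bases before the RefSeq start site of these genes were read in the GRCm38.p6 build for the 9 of 15 with an entry, because these are the genes that set the population apart and a reader can see what they share. The ETS core GGAAG was found on either strand in 8 of 9 of these windows and in 64.1% of all 32851 windows of that length. The GATA word AGATAA was in 2 (9.99% of all), the RUNX word TGTGGT in 1 (14.0%), the Meis word TGACAG in 1 (15.9%) and the E-box CAGCTG in 1 (13.0%). A match of letters is a description and no site, and the windows differ in base composition, from 41.6% G and C in Vldlr to 75.2% in Dnmt3b. Of these, 3 are shown 5′ to 3′ on the gene's strand with the ETS core or its reverse complement CTTCC in capitals. They are that of Cd34 at chr1:194938571-194938820 (forward), of Adgrl4 at chr3:151437632-151437881 (forward) and of Mycn at chr12:12941837-12942086 (reverse).
Cd34: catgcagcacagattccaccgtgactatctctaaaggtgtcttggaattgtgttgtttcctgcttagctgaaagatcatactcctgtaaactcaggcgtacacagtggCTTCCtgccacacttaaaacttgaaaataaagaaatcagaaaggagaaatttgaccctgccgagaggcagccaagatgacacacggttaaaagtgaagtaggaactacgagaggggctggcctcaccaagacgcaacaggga
Adgrl4: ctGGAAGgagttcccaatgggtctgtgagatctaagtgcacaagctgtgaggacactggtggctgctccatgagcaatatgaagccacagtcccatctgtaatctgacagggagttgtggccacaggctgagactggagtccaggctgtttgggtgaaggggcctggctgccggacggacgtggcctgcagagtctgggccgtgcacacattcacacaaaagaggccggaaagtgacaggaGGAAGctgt
Mycn: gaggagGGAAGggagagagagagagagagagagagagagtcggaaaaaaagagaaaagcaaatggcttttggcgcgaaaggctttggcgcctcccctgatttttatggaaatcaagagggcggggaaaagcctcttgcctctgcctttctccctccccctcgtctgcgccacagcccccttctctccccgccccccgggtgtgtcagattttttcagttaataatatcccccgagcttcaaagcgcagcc

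The transcription factors of stem cells were on the whole higher, with a few exceptions. Of the 16 on the list that could be compared, 12 were at least 2-fold higher and 1 lower, and the list median lay 1.97 log2 units above that of all genes. With TMM factors 11 were higher and 2 lower (10.4% and 23.0% of all genes), and without the erythroblasts the list median lay 2.26 above. The list was written with earlier results of these cells known, as were all lists below.

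Hlf, a PAR bZIP factor of stem cells, stood at 752 CPM against 14.7 to 69.9 CPM elsewhere. Its wells held 0, 5 and 20 UMIs at the lowest, median and highest, and its log2 ratio was 4.37 (3.96 to 4.82). Hoxa9, a homeobox factor of progenitor self-renewal, had a log2 ratio of 4.43 (3.64 to 5.33), or 3.72 without the erythroblasts, with 0, 1 and 13 UMIs per well. Gata2, which stem cells need for their maintenance, had one of 3.55 (2.81 to 4.37) with 0, 1 and 11. Meis1, the cofactor of Hoxa9, had 44 UMIs in 32 wells against 1 elsewhere, below the 50 UMIs needed to be compared.

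Factors shared with committed cells were less distinct. Sox4 had 0, 7 and 24 UMIs per well and a log2 ratio of 2.49 (2.27 to 2.71), but its 886 CPM stood beside 685 CPM in B lymphocytes and 434 in T cells. Myb, needed by progenitors of most lineages, was higher in B lymphocytes (891 CPM) than in the progenitor/stem cells (656 CPM). Without the erythroblasts the log2 ratios of Sox4 and Myb were 1.73 and 1.65. Lmo2 was shared with erythroblasts, at 956 against 517 CPM, and its log2 ratio moved from 1.69 to 3.30 without them. Runx1 had a log2 ratio of 1.52 (1.14 to 1.91), while Tal1 and Gfi1b, which also serve erythroid development, had ratios of -0.71 (-1.19 to -0.25) and -1.49 (-2.22 to -0.81). Tal1 turned to 2.41 without the erythroblasts and 0.01 with the equal mean of the 4 CPMs, and Gfi1b was at -0.78 with the equal mean, short of 2-fold.

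Surface genes of stem cells and progenitors gave 9 of 14 at least 2-fold higher and 2 lower, with a list median 2.54 above that of all genes. Cd93, a lectin-like receptor, had 0, 3 and 21 UMIs per well and a log2 ratio of 2.72 (2.40 to 3.05), or 1.96 without the erythroblasts, although B lymphocytes were at a like level (508 against 473 CPM). The others of the 9 were Cd34, Kit, Adgrg1, Flt3, Adgrl4, Cd27, Eng and Angpt1, the last a ligand on this list and not itself a surface gene. Both lower genes were ones of other cells on this plate. Thy1 stood at 674 CPM in T cells and 28.7 CPM here, and Cd82 at 249 CPM in erythroblasts and 44.3 CPM here. The log2 ratio of Cd82 moved from -1.74 to -0.36 without the erythroblasts, short of 2-fold.

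**Figure D2:**
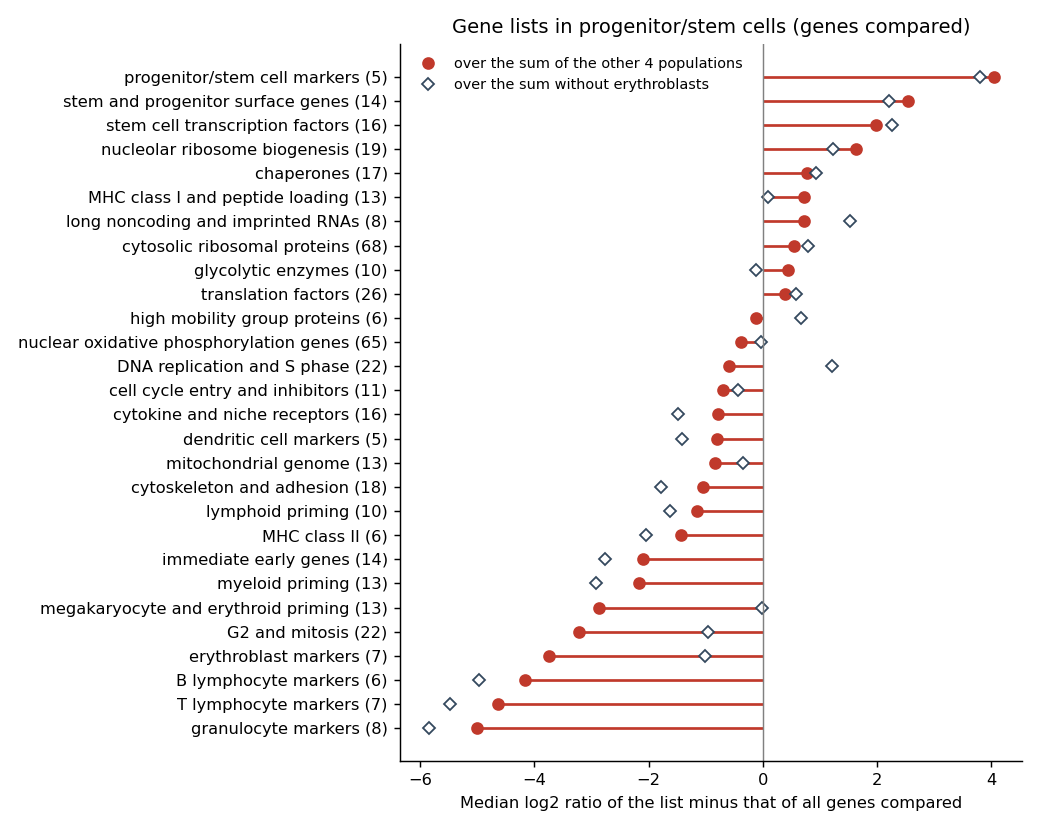
Median log2 ratio of progenitor/stem cells over the other populations for 28 gene lists, as the distance from the median of all genes compared (0 on the axis), with the number of genes compared in brackets; filled circles use the sum of the other 4 populations and open diamonds that sum without erythroblasts. Stem cell lists and nucleolar genes lie to the right with either sum, while the S phase list moves from -0.60 to 1.20 and the G2 and mitosis list from -3.22 to -0.95 without the erythroblasts.

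Genes that make ribosomes were higher as a group. All 19 nucleolar ribosome biogenesis genes were at least 2-fold higher, 13 of 19 with TMM factors (27.5% and 10.4% of all genes). Their median lay 1.63 above that of all genes (1.22 without the erythroblasts). The summed list stood at 3517 CPM (3391 to 3647), and the nearest population was the T cells at 2021 CPM. Per well it took 0.0833% of UMIs at the lowest, 0.310% at the median and 0.845% at the highest, against medians of 0.199% in T cells and 0.0381% in erythroblasts. Npm1, a nucleolar chaperone, had 0, 8 and 43 UMIs per well and a log2 ratio of 2.18 (1.99 to 2.37), and Ncl, nucleolin, one of 1.56 (1.34 to 1.80). Mybbp1a, a nucleolar regulator that overlaps Spns2, had one of 3.20 (2.65 to 3.79), or 2.57 without the erythroblasts.

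Cytosolic ribosomal protein genes were nearer to the background. Of 68, 35 were at least 2-fold higher and 0 lower (27.5% and 13.6% of all genes), but with TMM factors only 1 of 68 was higher (10.4% of all genes). The list median was 0.55 above that of all genes. In single wells they took 2.50%, 5.92% and 8.68% of UMIs at the lowest, median and highest, and the medians of the other populations lay between 0.756% in granulocytes and 4.17% in T cells. Translation factors had 9 of 26 higher, not far from the 27.5% of all genes, and a median 0.39 above that of all genes. Chaperones had 11 of 17 higher and 1 lower (27.5% and 13.6% of all genes), with a median 0.78 above. Hsp90ab1, the constitutive form of HSP90, was detected in every well (2, 16 and 75 UMIs) and had a log2 ratio of 2.19 (2.06 to 2.33).

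Energy and antigen presentation genes showed smaller shifts. The 10 glycolytic enzymes had 4 higher (27.5% of all genes) and a median 0.44 above that of all genes, which turned to -0.12 without the erythroblasts. The 65 nuclear genes of oxidative phosphorylation had 1 higher and 1 lower, and their median lay 0.39 log2 units below. The 13 genes of the mitochondrial genome lay 0.85 below, and 2.28 below without the 24 wells above 2%. Those wells were picked by this same share and left out of the progenitor/stem cells only, so a lower value follows from the choice. MHC class I and peptide loading genes had 8 of 13 higher (27.5% of all genes) and a median 0.73 above, or 0.08 above without the erythroblasts. The 6 MHC class II genes had 2 higher and 3 lower (27.5% and 13.6% of all genes). Their median moved from 1.44 below to 1.55 above when the B lymphocytes were left out. Cd74, the invariant chain, had 10 UMIs in 9 wells, whereas H2-DMa, which loads peptides, was higher at a log2 ratio of 2.20 (1.72 to 2.71), or 1.47 without the erythroblasts, though H2-DMa overlaps Brd2 among others.

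Genes of cell division separated into phases. In the G2 and mitosis list, 0 of 22 were higher and 21 were lower, with a median 3.22 log2 units below that of all genes. Much of this distance was to erythroblasts: without them 15 genes could be compared, 3 were lower (11.8% of all genes in that comparison) and the median lay 0.95 below. The list took 0.0153%, 0.101% and 1.00% of UMIs in the lowest, median and highest progenitor/stem cell well. The medians of the granulocytes, B lymphocytes and T cells were 0.0985%, 0.135% and 0.206%. The summed list reached 1893 CPM here (interval 1800 to 1988), against 2000 (1864 to 2143) for granulocytes, 2702 for B lymphocytes and 3049 for T cells, and the intervals of the first pair overlapped. At a summed 18114 CPM the erythroblasts were far above these, and no progenitor/stem cell well reached the erythroblast median of 1.82%.

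The S phase list depended on the comparison. Against all 4 populations, 1 of 22 genes was higher and 4 were lower, with a median 0.60 below that of all genes, but without the erythroblasts 17 of 18 were higher and the median lay 1.20 above, and the equal mean of the 4 CPMs gave 0.06 above. The summed list stood at 2853 CPM in the progenitor/stem cells, 5854 in erythroblasts, 1524 in B lymphocytes, 1038 in T cells and 751 in granulocytes. In this list the progenitor/stem cells thus came second on the plate. Hells, a chromatin remodeller of replicating cells, was the 1 higher gene, with a log2 ratio of 1.71 (1.26 to 2.17), and Rrm2, a subunit of ribonucleotide reductase, was lower at -2.68 (-3.33 to -2.09).

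The RNA of 2 division genes was concentrated in few wells. Mki67, the proliferation antigen, had 0, 1 and 53 UMIs in the lowest, median and highest well, 28 of 95 wells had none and the 5 highest held 50.0% of its UMIs. Top2a, the topoisomerase of mitosis, had 0, 1 and 37 with 45.8% in the 5 highest wells. Their log2 ratios were -2.74 (-2.90 to -2.58) and -1.66 (-1.84 to -1.49), and without the erythroblasts -0.29 and 0.38. The S phase share of a well was related to forward scatter (rho 0.38, r 0.49, n = 95 wells of 1 plate). Over the whole lists the 5 highest wells held 34.8% of the G2 and mitosis UMIs and 25.2% of the S phase UMIs.

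Of 11 genes on the list of cell cycle entry and inhibitors, 3 were higher and 5 lower (27.5% and 13.6% of all genes). Cdk6, a kinase of early G1, was among the clearest genes of the population, with 0, 7 and 37 UMIs per well, 1212 CPM against 75.0 to 210 CPM, and a log2 ratio of 3.49 (3.24 to 3.74). Cdk4 followed at 2.04 (1.71 to 2.38). Of their cyclin partners, Ccnd2 was higher at 1.28 (0.99 to 1.57), though its T cell level was greater (753 against 302 CPM), and Ccnd3 was lower at -2.18 (-2.47 to -1.91). Without the erythroblasts Ccnd2 was at 0.39, no longer 2-fold higher, and at 0.51 with the equal mean of the 4 CPMs, and Ccnd3 was at -1.35 without the erythroblasts.

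Lineage genes were present in the gate, some in a minority of wells and others in most. The myeloid list had 3 of 13 genes higher and 7 lower (27.5% and 13.6% of all genes), so its share of higher genes was near that of all genes. Its median lay 2.16 below that of all genes, and 2.67 above when the granulocytes were left out. Its 3 higher genes were Mpo, Prtn3 and Plac8, whose log2 ratios without the erythroblasts were 1.61, 1.48 and 1.63. Mpo, myeloperoxidase, had 0 UMIs in 51 wells, a median of 0 and a highest well of 28, and the 5 highest wells held 39.9% of its UMIs. Its log2 ratio was 2.39 (1.97 to 2.83), with 231 CPM against 124 in granulocytes and at most 22.1 CPM in the others. Prtn3, a granule protease, was broader, with 78 wells and 0, 2 and 18 UMIs. Plac8 was found in 86 wells with 0, 4 and 22 UMIs.

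Of the 10 lymphoid priming genes, 3 were higher and 4 lower (27.5% and 13.6% of all genes), and the median lay 1.15 below that of all genes. The share of higher genes was thus near that of all genes. Dntt, the terminal transferase of antigen receptor rearrangement, had 325 UMIs in 40 wells and 40 UMIs in the rest, a log2 ratio of 3.77 (3.30 to 4.29). Its wells ran from 0 to 73 UMIs around a median of 0, and the 5 highest held 53.8% of its UMIs. Thinned, 21.1% of the progenitor/stem cell wells had a Dntt UMI, against 11.9% of thymic T cell wells. Ighm, the heavy chain gene of IgM, had 168 UMIs in 45 wells and a highest well of 18, and was 201 CPM against 4668 in B lymphocytes. The B lymphocyte markers, which include Ighm, summed to 259 CPM here against 121, 213 and 309 CPM in erythroblasts, granulocytes and T cells. A level of Ighm particular to the gate is thus not shown. Wells M14 and K6, with 17 and 14 Ighm UMIs, were also high in erythroblast and granulocyte markers, whereas the highest well, K1, was not. Il7r, the interleukin 7 receptor, had 6 UMIs in 5 wells, with 375 CPM in B lymphocytes and 245 in T cells.

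Erythroid and megakaryocyte genes were divided too. In their joint priming list 3 of 13 were higher and 9 lower (27.5% and 13.6% of all genes), and the share of higher genes was again near that of all genes. The list median lay 2.87 below that of all genes and 0.01 below without the erythroblasts. Itga2b, the CD41 integrin of megakaryocytes and early progenitors, had 54 UMIs in 31 wells against 10 elsewhere, a log2 ratio of 3.19 (2.20 to 4.32; 4.00 without the erythroblasts), and Pf4, a platelet chemokine, 15 UMIs in 9 wells. Epor, the erythropoietin receptor, had 6 UMIs in 6 wells. Apoe, a lipid carrier on the same list, had a ratio of 1.09 (0.65 to 1.52) and 42.2% of its UMIs in 5 wells. Its call was lost without the erythroblasts (0.39), with the equal mean of the 4 CPMs (0.95) and without the 24 wells above 2% mitochondrial UMIs (0.80).

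The lowest genes were markers of the mature populations. Cldn13, a claudin of erythroblasts, had 3 UMIs against 350 (log2 ratio -6.11, -8.40 to -4.55), and Ermap, an erythroid membrane protein, 4 against 309. Cd177 and Mmp9, both neutrophil genes, had 3 against 261 and 14 against 777. S100a8, an abundant granulocyte protein, was at 454 CPM here, close to the 435 CPM of the erythroblasts and below the 793 and 1613 CPM of the T cells and B lymphocytes. The marker lists of erythroblasts, granulocytes, B lymphocytes and T cells had all of their 7, 8, 6 and 7 compared genes at least 2-fold lower. Of other cells, the 4 monocyte and macrophage genes compared were all lower and the 5 dendritic cell genes had 1 higher and 2 lower. Eosinophil markers had 0 UMIs. Stromal markers stood at 7.19 CPM and mast cell and basophil markers at 29.9 CPM, against at most 2.48 and 14.9 CPM elsewhere. Megakaryocyte markers were also highest here, at 110 CPM against 29.5 to 69.9 CPM. Natural killer cell markers stood at 75.5 CPM, below the 145 CPM of T cells. These last 2 lists had 1 gene compared each, and it was higher. Endothelial markers stood at 109 CPM, below the 206 CPM of B lymphocytes and the 135 CPM of T cells. Without wells K5, K6 and L11 the erythroblast markers fell from 13280 to 10903 CPM and the granulocyte markers from 2289 to 2071 CPM.

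Immediate early genes, which dissociation and stimulation can induce, were also low in the gate. Of 14 compared, 1 was higher and 9 were lower, with a median 2.10 below that of all genes (2.77 without the erythroblasts). Klf2 had 9 UMIs in 8 wells, with 324 CPM in B lymphocytes and 10.8 CPM here, and Btg2 33 UMIs in 27 wells. Ier3 was the exception, with 47 UMIs against 12 and a log2 ratio of 2.72 (1.79 to 3.77), or 2.06 without the erythroblasts. Genes of the cytoskeleton and adhesion lay below too, by a median of 1.04, with 4 of 18 lower and 1 higher (13.6% and 27.5% of all genes). The higher one was Itga6, an integrin subunit that binds laminin, at a log2 ratio of 2.78 (2.15 to 3.46), or 1.97 without the erythroblasts. Tmsb4x, thymosin beta 4, had 1, 7 and 34 UMIs per well and stood at 938 CPM against 9963 CPM in granulocytes. Cytokine and niche receptors had 2 of 16 higher and 4 lower (27.5% and 13.6% of all genes). Their median moved from 0.79 below that of all genes to 0.18 above without the granulocytes.

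Among long noncoding and imprinted RNAs, 6 of 8 were at least 2-fold higher and 0 lower (27.5% and 13.6% of all genes). With TMM factors 3 were higher and 1 lower (10.4% and 23.0% of all genes). The list median lay 0.71 above that of all genes. Kcnq1ot1, an imprinted antisense RNA, had 0, 4 and 34 UMIs per well and a log2 ratio of 2.29 (2.06 to 2.52). It overlaps Kcnq1, and because the use of strand is not known here the reads of both cannot be told apart. The gene with the most UMIs, Gm42418, lies in a ribosomal RNA locus and took 13.8% of all progenitor/stem cell UMIs, with 166, 1055 and 3619 in the lowest, median and highest well. Gm8292, annotated within Boll, was high (1532 against 54.5 to 150 CPM) but is a predicted gene whose reads may be shared with a near-identical copy.

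At 1 depth the progenitor/stem cells expressed the broadest set of genes. Thinned to 2000 UMIs, their wells had a median of 1253 genes with a UMI (979 to 1373), against 1192 (1008 to 1307) in T cells, 1038 in B lymphocytes, 836 in granulocytes and 827 in erythroblasts. All 95 progenitor/stem cell wells reached this depth, as did 42 T cell, 33 B lymphocyte, 86 granulocyte and 95 erythroblast wells. The ranges of progenitor/stem cells and T cells overlapped widely, so single wells do not separate them. The progenitor/stem cells stayed highest and the T cells next when wells were thinned to 1000 or 4000 UMIs (706 and 2126 genes against 676 and 1917). The same was so without Gm42418 and the globin genes, which are the most abundant genes of the plate, at 1419 against 1361.

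Spike-in RNA gave a view of RNA content. The progenitor/stem cell wells had a median of 17.2 UMIs on mouse genes per ERCC UMI (7.51 to 38.8), against 15.1 in erythroblasts, 9.35 in T cells, 9.16 in granulocytes and 7.10 in B lymphocytes. The wells of progenitor/stem cells and erythroblasts covered much the same range, and without Gm42418 their medians were 14.8 and 14.3. These values assume the same spike-in amount in each well. The total UMIs of a progenitor/stem cell well were related to its CD44 fluorescence (rho 0.54, r 0.52, n = 95). Cd44 RNA was not related to that fluorescence (rho -0.004, r -0.12).

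**Figure D3:**
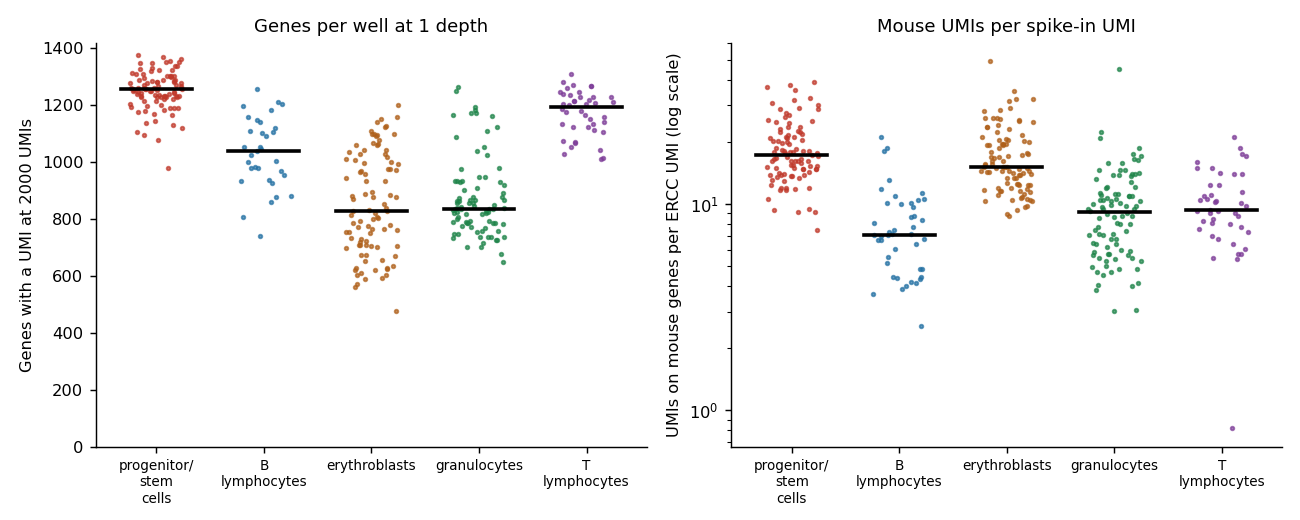
Left, genes with at least 1 UMI in each well after thinning to 2000 UMIs; right, UMIs on mouse genes per ERCC spike-in UMI in each well (log axis). Points are wells and bars are medians of the 5 sorted populations, and the progenitor/stem cells have the highest median in both, 1253 genes and 17.2 UMIs, with wells overlapping those of T cells on the left and erythroblasts on the right.

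For most genes the spread between wells was close to that of counting. Among 1957 genes with a mean of at least 0.2 UMIs in the thinned wells, the variance over the mean had a median of 1.05, and 33 genes reached 2. Without wells K5, K6 and L11 28 genes did. The values of the most variable genes were 33.3 for Gm42418, 27.9 for mt-Rnr2, 23.9 for Hbb-bs, 14.6 for Hba-a1, 12.3 for Hba-a2, 10.5 for Hbb-bt, 9.12 for mt-Rnr1, 5.89 for Dntt, 5.82 for AA474408 and 5.19 for S100a9.

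The globins and S100a9 owed their place to the 3 wells that stood apart. Without them the ratio of Hbb-bs was 1.44, that of Hba-a1 1.75, that of Hba-a2 1.10, that of Hbb-bt 1.48 and that of S100a9 1.49, whereas Dntt remained at 6.03. Without the 24 wells above 2% mitochondrial UMIs, mt-Rnr2 was at 3.16, mt-Rnr1 at 1.21 and Dntt at 6.08. As these wells were picked by their mitochondrial share, a fall of mt-Rnr2 and mt-Rnr1 follows from the choice. Among the genes past 2 without K5, K6 and L11 were Dntt, the histone gene Hist1h2ap (3.65), Mki67 (3.48), Top2a (2.49), Mpo (2.46), Apoe (2.33), Sox4 (2.31), Cdk6 (2.07) and the replication helicase gene Mcm4 (2.05). Each of these moved by less than 0.2 when these 3 wells were left out.

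**Figure D4:**
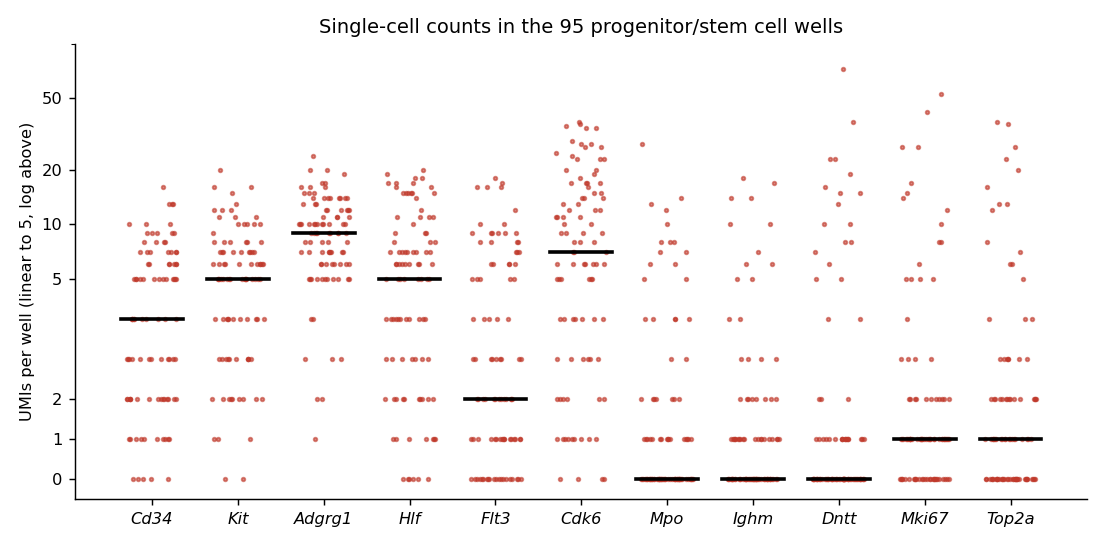
UMIs per well of 11 genes in the 95 progenitor/stem cell wells (axis linear up to 5 and logarithmic above), each point 1 well and each bar the median. Adgrg1 has a median of 9 and no empty well, whereas Mpo, Ighm and Dntt have a median of 0 and single wells at 28, 18 and 73.

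Genes were compared in pairs across the 95 wells to see which were found together. Over 50 genes and 1225 pairs, the Spearman rho had 5th and 95th percentiles of -0.21 and 0.23, 8 pairs reached 0.4 and 4 reached -0.4, and the limit of 0.4 was chosen after the data had been seen. These are descriptions over wells that share a plate and differ in depth. Of the 8 positive pairs, 2 stayed at 0.4 or more when the wells were thinned to 2000 and to 4000 UMIs, and none of the 4 negative pairs stayed at -0.4 or less at both depths.

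Mpo and Cdk6 had a rho of 0.54, and 0.48 and 0.50 when thinned. Dntt and Ighm had a rho of 0.55, and 0.56 and 0.60 when thinned, with values of 0.58, 0.23, 0.88 and 0.46 within rows K, L, M and N. Mpo and Dntt were unrelated (-0.04), with both found in 19 wells, Dntt alone in 21, Mpo alone in 25 and neither in 30.

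The markers paired here (Cd34, Kit, Adgrg1, Flt3 and Hlf) were each found in most wells. The numbers of wells with both genes of a pair follow largely from this and do not show that the genes go together. Their levels were loosely related. Adgrg1 and Kit, both found in 93 wells, had a rho of 0.32, and 0.19 and 0.33 when thinned. Cd34 and Kit, both found in 89 wells, had a rho of 0.14, Flt3 and Hlf one of 0.19, and Flt3 and Kit one of -0.21. Cdk6 and Hlf had the strongest negative value, -0.46, which was -0.35 and -0.43 when thinned. Flt3 and Ighm had 0.57 at full depth, 0.15 at 2000 UMIs and 0.40 at 4000, and Flt3 and Dntt 0.53, 0.21 and 0.42.

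**Figure D5:**
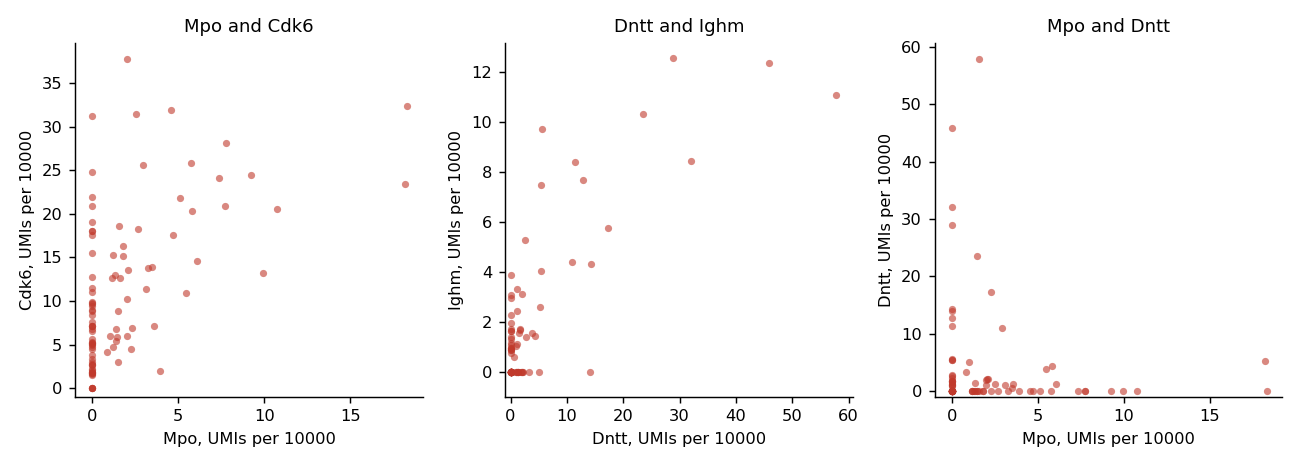
UMIs relative to the total on mouse genes of each of the 95 progenitor/stem cell wells for Mpo and Cdk6, Dntt and Ighm, and Mpo and Dntt, each point 1 well. The first 2 pairs rise together (rho 0.54 and 0.55), and the last does not (rho -0.04), with both genes found in 19 wells.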

How the data were processed

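The authors deposited 1 table of raw UMI counts, with genes in rows and wells in columns. As scPipe is described, it aligns reads with Rsubread or an aligner of choice, counts those on exons, splits them by the designed barcodes and, by default, merges UMIs within a Hamming distance of 1. Not given in the sources used here were the aligner version, build, annotation and strand use. The labels contradict each other on the layout of read 1. The well in each column name gave its sample, and 9 columns that match none were not used. Symbols and coordinates are from GENCODE M21 on GRCm38, and the authors may have used another build. A further 74 mouse gene rows had no symbol and held 1107 UMIs.

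Counts were summed per population, with CPM on mouse genes and ERCC left out. A gene was compared at 50 UMIs in both sums together. Sums under 3 UMIs were set to 3 to call and rank 2-fold differences, and ratios of single genes are without it. Wells were thinned by random draws without replacement (wells below the depth left out), and the numbers of genes at a depth are the expected numbers under such draws. Each well was left out of its own population sum when the nearest population was found, with a Pearson correlation of log2 CPM. Wells with fewer than 20 ERCC UMIs were left out of the ratio to ERCC. With 1 mouse and 1 plate there is no test. One cell was sorted per well, and no doublet caller was run. The calculation was run on simulated sums of 6254 genes, drawn with counting error only. In these, 200 genes, each with at least 200 UMIs in the data, were changed 4-fold. All of these changes were found, 0.463% of unchanged genes were called and 95.9% of intervals held the true ratio. The draws follow the model of the intervals and hold no spread between wells, so they check the calculation only.

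The members and lists were chosen with earlier results of these data known. Named were the 15 highest and 12 lowest genes by ratio (in at least 25% of wells of the higher population), the 10 highest over the next population, the 5 most abundant, the 10 most variable, the markers and antibody genes, and from each list the 6 most abundant members and the 4 farthest from its median. Pairs, Procr and wells K5, K6 and L11 and the limit of 2% were picked after the data had been seen. Some genes of the lists are not analysed here. Python 3.11.15, numpy 2.4.6, pandas 2.3.3, scipy 1.17.1 and matplotlib 3.10.9 were used, and R 4.3.3 with edgeR 4.0.16 (TMM factors only) and scran 1.30.0 for alternatives. Other alternatives changed the totals, the weighting of populations, the UMI minimum, the thinning depth, the markers and the wells.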

Additional observations from a re-analysis of the deposited data

How the results depend on the processing

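No paired analysis was possible because all populations came from 1 mouse and no test was made. The number of genes at least 2-fold higher (1735) was 656 with TMM factors, 706 with scran factors, and 3181, 410 and 5195 at minimums of 20, 200 and 1 UMIs. The number lower (862) was 1454, 1766 and, at 200 and 1 UMIs, 348 and 1458. The median log2 ratio (0.45) turned to -0.18 and -0.31 with TMM and scran factors. It was 0.29 without globins in the totals, 0.32 with an equal mean of the 4 CPMs, 0.57, 0.29 and 0.75 at 20, 200 and 1 UMIs, and 0.48, 0.40 and 0.53 without B lymphocytes, erythroblasts or T cells. Without the wells above 2% mitochondrial UMIs it was 0.41. Leaving out 1 plate row in turn gave 1457 to 1507 higher, 859 to 866 lower and a median of 0.39 to 0.42.

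The 1253 genes at 2000 UMIs became 706 at 1000, 2126 at 4000 and 1419 without Gm42418 and globins, and the 17.2 UMIs per ERCC UMI became 18.8 as a ratio of sums and 14.8 without Gm42418. The marker sum (3527 CPM) was 4091 with totals without Gm42418, 3788 as a mean over wells, and 2850, 3007, 3087, 2441 and 2774 without Kit, Cd34, Flt3, Adgrg1 or Hlf. Of 664 alternatives over 32 list medians relative to all genes, 567 stayed within the interval of the list's own median. Outside it lay 92, and 5 were counted as crossings. That interval comes from the spread of the list's genes and can be wide, so staying within it need not be a small move. The change of side of the glycolytic enzymes without the erythroblasts, for example, lay within it. Crossings were counted only for the 18 lists with a median at least 1 from that of all genes, over 371 alternatives. Those of nearer lists, such as the S phase list, are not among the 5. The 5 were megakaryocyte markers (2.73, from 1 gene) to -0.87 at 20 UMIs and 0 at 1 UMI, natural killer cell markers (1.23, from 1 gene) to 0 at 1 UMI, MHC class II to 1.55 without B lymphocytes and myeloid priming to 2.67 without granulocytes.

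The cause of these shifts was not tested. Depth limits lower genes: Meis1, at 52.7 CPM, was found in 32 of 95 wells at a median of 7959 UMIs per well, so 0 UMIs in a well does not show that a gene is off.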
